A study of Mus musculus with 6 samples.

Results

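The secreted Wnt antagonists examined here were 10 genes, chosen by symbol from the 39179 genes of the expression table: Sost, Sostdc1, Dkk1, Dkk2, Dkk3, Sfrp1, Sfrp2, Sfrp4, Frzb and Wif1. Their RNA was measured in Ocy454, a mouse osteocytic cell line that was grown to confluence at 33 °C and kept at 37 °C for 14 days, with fresh medium 24 h before collection. Cells then received vehicle (acidified PBS), 1 nM PTH 1-34 or 0.5 µM YKL-05-093 for 4 h, with 2 libraries per condition. PTH 1-34 is the N-terminal fragment of parathyroid hormone that activates the PTH receptor. YKL-05-093 is a synthetic compound made to block the salt-inducible kinases (SIKs), which act downstream of that receptor. The study reports that it also targets other kinases in vitro, and which kinase underlies a change here was not tested. The sources give 1 vehicle for both agents. For work in culture the study's methods name DMSO as the solvent of its compounds, and no DMSO control is named among these libraries, so YKL-05-093 and its solvent cannot be told apart here. The labels do not say whether the 2 libraries of a condition came from separate cultures, so p-values measure the spread between these libraries.

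Wnt ligands signal by joining a frizzled receptor to the co-receptor LRP5 or LRP6, which stabilises beta-catenin. Secreted antagonists act outside the cell in 2 ways. Sclerostin (Sost), its relative Sostdc1 and the Dickkopf proteins Dkk1 and Dkk2 bind the LRP co-receptors. The secreted frizzled-related proteins (Sfrp1, Sfrp2, Sfrp4 and Frzb) and Wif1 bind Wnt ligands themselves. Dkk3 is grouped with the Dickkopf family by sequence, although it does not bind LRP6 as Dkk1 does. In bone, sclerostin is made mainly by osteocytes and restrains bone formation, and PTH is known to lower it.

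Promoter windows from RefSeq (GRCm38.p6) were held for 6 of the 10 genes: Dkk1, Dkk2, Frzb, Sfrp2, Sost and Wif1. The 250 bases before each start were searched on both strands for TGACGTCA, the cAMP response element, for its core TGACG, which every full element also contains, for CTTTGAT and CTTTGTT, which TCF/LEF factors can bind, and for a form of the MEF2 element. Of the 32851 windows of that length in the table, 1.55% held the full cAMP response element, 17.8% its core, 3.21% CTTTGAT, 5.03% CTTTGTT and 3.20% the MEF2 element. Among the 6 genes there were 2 matches, TGACG in Sost, starting at base -152 from the start, and CTTTGTT in Dkk1, at base -98. The windows of Dkk2, Frzb, Sfrp2 and Wif1 held none of these letters. Sequence is printed for Wif1, which responded to PTH and had a window, and for Sost, the antagonist through which osteocytes are best known. The Wif1 stretch runs from chr10:121033754-121033959 on the plus strand, up to the base before the annotated gene, and the Sost stretch is chr11:101967016-101967265 read on the minus strand, with the match in capitals.
Wif1: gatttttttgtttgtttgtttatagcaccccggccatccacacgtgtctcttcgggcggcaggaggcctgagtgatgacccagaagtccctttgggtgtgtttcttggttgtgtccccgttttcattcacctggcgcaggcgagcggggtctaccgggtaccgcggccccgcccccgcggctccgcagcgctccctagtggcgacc
Sost: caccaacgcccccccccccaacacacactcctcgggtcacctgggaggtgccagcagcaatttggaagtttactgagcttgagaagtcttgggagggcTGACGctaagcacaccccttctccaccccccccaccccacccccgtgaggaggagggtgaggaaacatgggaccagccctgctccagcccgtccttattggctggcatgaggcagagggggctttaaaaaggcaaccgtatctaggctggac
The Wif1 window was the richest of the 6 in CG dinucleotides, with 21 in its 250 bases and a GC content of 62.8%. Only the first 206 of these bases are printed above, since the others lie within the annotated gene. The Sost window had 6 CG dinucleotides and a GC content of 61.2%, and the median over all windows was 6 and 52.4%.

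Library totals, recovered from the steps of the deposited values, ran from 17505798 to 27983585 reads, the extremes being both vehicle libraries. The vehicle libraries also differed most from each other: the median absolute difference between replicates over the 14264 genes that passed the filter on the log2 scale was 0.333 between the vehicle libraries, against 0.108 between the PTH libraries and 0.103 between those of YKL-05-093. Changes against vehicle are therefore also given without each vehicle library for the antagonists called with PTH. The same is given for Sfrp4, Dkk2, Wif1, Sfrp2 and Dkk3 with YKL-05-093. Such fits take their spread from the treated pair alone, so they cannot test calls against the uneven vehicle pair. Genes of the other lists are not given without a vehicle library, and the calls of all genes against vehicle carry the uneven pair. Of 13 osteoblast and osteocyte markers 11 passed the filter, and their summed level was 1078 to 1226 RPKM in vehicle, 1348 to 1609 with PTH and 1311 to 1628 with YKL-05-093, led by Ibsp. Of the osteocyte markers, Dmp1 stood at 0.899 RPKM, Phex at 1.29, Mepe at 0.0893 and Pdpn at 62.2 in vehicle. Fgf23 was at or under 3 reads in every library. Phex stood at 3.42 RPKM (SD 2.14) with PTH and 3.76 (SD 1.47) with YKL-05-093, and was called in neither case. All 5 muscle markers were at or under 3 reads in every library, with Myod1 and Ckm at 0, and markers of cartilage, fat, osteoclasts and macrophages, and endothelium are given with their lists further on.

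Levels are given in RPKM (read counts scaled by gene length and library total), so that ranks between genes depend on the lengths the authors used, and 3 reads in a library are taken as the floor of detection. This floor covers counting error only. The antagonists differed widely in level. Sfrp2 and Dkk3 made up 94.4% and 94.5% of the summed RPKM of the 10 genes in the vehicle libraries, Wif1 came next, and Sost, Sostdc1 and Dkk1 lay at the floor.

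**Figure D1:**
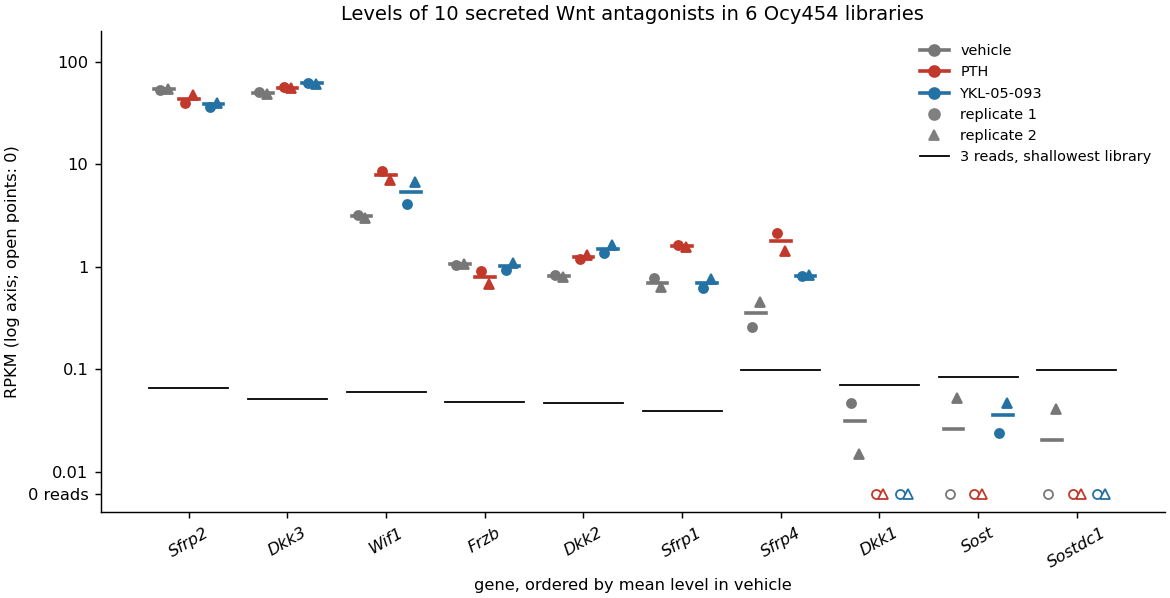
RPKM of each of the 10 antagonists in the 6 libraries, on a log axis with 0 reads drawn below it; points are libraries, coloured bars the mean of 2, and black lines the RPKM of 3 reads in the shallowest library. Sfrp2 and Dkk3 sit near 50 RPKM in vehicle, Wif1 near 3, and Dkk1, Sost and Sostdc1 lie under their black lines in every library.

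In vehicle the order of mean levels was Sfrp2 (54.0 RPKM), Dkk3 (49.97), Wif1 (3.12), Frzb (1.06), Dkk2 (0.815), Sfrp1 (0.701), Sfrp4 (0.355), Dkk1 (0.0309), Sost (0.0260) and Sostdc1 (0.0204). From Sfrp2 to Dkk1 no gene's 2 libraries overlapped those of its neighbour in this order, while Dkk1, Sost and Sostdc1 overlapped one another. With PTH, Dkk3 stood above Sfrp2, and Sfrp4 (1.78 RPKM) and Sfrp1 (1.61), whose libraries overlapped, stood above Dkk2 and Frzb. With YKL-05-093, Dkk3 also stood above Sfrp2, and Dkk2 (1.51 RPKM) ranked next after Wif1, above Frzb, Sfrp4 and Sfrp1. The place of Sfrp4 depends on its length: the values imply 1750 bases, and the merged exons of the GENCODE annotation hold 4179. With the same reads over that length its mean level would be 0.149 RPKM in vehicle, 0.744 with PTH and 0.344 with YKL-05-093, the lowest of the 7 genes above the floor in each condition. Among the 14264 genes that passed the filter, Sfrp2 lay above 91.7% in vehicle and Dkk3 above 90.9%. Wif1 lay above 31.7% in vehicle, 54.5% with PTH and 45.5% with YKL-05-093.

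The summed level of the 10 genes ran from 107.5 to 114.7 RPKM over the 6 libraries, while its makeup differed. Sfrp2 and Dkk3 together held 87.0% and 89.5% of the sum in the PTH libraries and 92.6% and 90.2% in the YKL-05-093 libraries. The other 8 genes summed to 6.13 ± 0.0976 RPKM in vehicle, 13.3 ± 1.70 with PTH and 9.49 ± 2.23 with YKL-05-093 (SD, n = 2). In the YKL-05-093 libraries that remainder was 7.91 and 11.1 RPKM, a gap set mainly by Wif1.

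**Figure D2:**
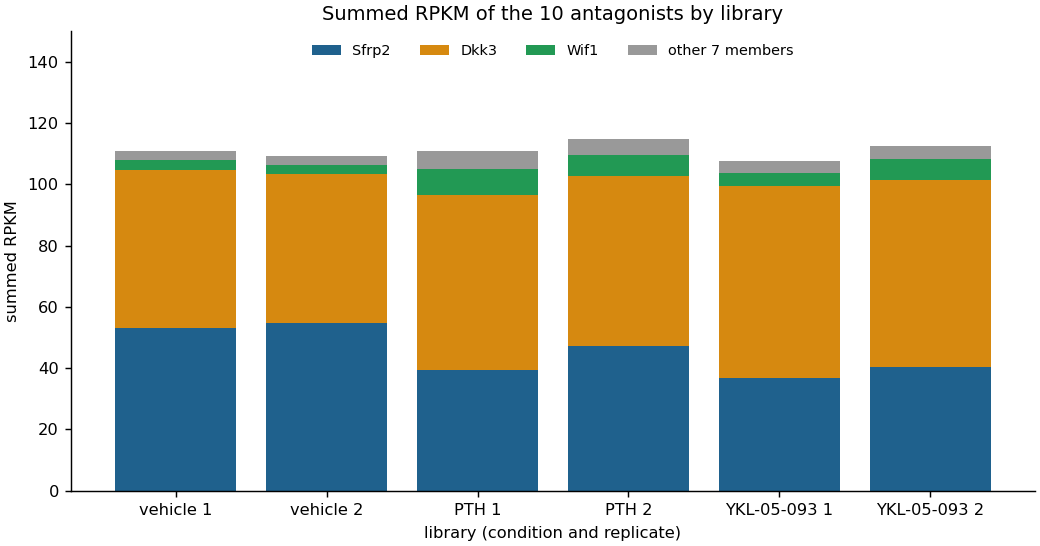
Stacked RPKM of Sfrp2, Dkk3, Wif1 and the other 7 antagonists in each of the 6 libraries. The total runs from 107.5 to 114.7 RPKM, the Sfrp2 share is largest in the 2 vehicle libraries, and the Wif1 and remaining segments are largest in the 2 PTH libraries.

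Sost (ENSMUSG00000001494, GRCm38 chromosome 11 from 101962458 to 101967015, minus strand) had 0 and 3 reads in the vehicle libraries, 0 and 0 with PTH, and 1 and 2 with YKL-05-093. In RPKM these were 0 and 0.0519, 0 and 0, and 0.0239 and 0.0467. A count of 0 allowed up to 0.0673 and 0.0762 RPKM in the PTH libraries, which is above every Sost value measured, so a change of sclerostin RNA was not detectable at this depth. By RT-qPCR the study reports that PTH lowered Sost in Ocy454 cells at the same dose and time. Sostdc1 (ENSMUSG00000036169, chromosome 12 from 36314139 to 36318452, plus strand) had 2 reads in vehicle replicate 2 and 0 in the other 5 libraries. Dkk1 (ENSMUSG00000024868, chromosome 19 from 30545863 to 30549665, minus strand) had 2 and 1 reads in vehicle and 0 in the 4 treated libraries. For neither gene was a difference detectable, and none of the 3 genes passed the filter of at least 0.5 RPKM in at least 2 libraries, so none was tested.

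Dkk2 (ENSMUSG00000028031, chromosome 3 from 132085292 to 132180304, plus strand) stood at 0.836 and 0.794 RPKM in vehicle, 1.19 and 1.31 with PTH, and 1.38 and 1.63 with YKL-05-093. Both treated groups lay above vehicle without overlap, and the YKL-05-093 libraries lay above the PTH libraries. These values rest on 54 to 125 reads per library, and the replicates of each condition agreed within counting error. Dkk3 (ENSMUSG00000030772, chromosome 7 from 112116017 to 112159057, minus strand) stood at 51.5 and 48.5 RPKM in vehicle, 56.9 and 55.3 with PTH, and 62.8 and 61.3 with YKL-05-093. With 3019 to 4541 reads per library, it was the most deeply read antagonist together with Sfrp2.

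Sfrp2 (ENSMUSG00000027996, chromosome 3 from 83766321 to 83774316, plus strand), a frizzled-related protein, stood at 53.1 and 54.8 RPKM in vehicle, 39.6 and 47.3 with PTH, and 36.8 and 40.3 with YKL-05-093. It was lowest in the treated libraries, with no overlap with vehicle in either case. Its exons overlap those of Gm26771 on the opposite strand over 347 bases in the GENCODE annotation, and whether the counting used strand is not given in the sources used here, so reads of that stretch could belong to either gene. Frzb (ENSMUSG00000027004, chromosome 2 from 80411970 to 80447625, minus strand), also known as sFRP3, stood at 1.05 and 1.07 RPKM in vehicle, 0.903 and 0.687 with PTH, and 0.934 and 1.09 with YKL-05-093. Its YKL-05-093 libraries overlapped those of vehicle.

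Sfrp1 (ENSMUSG00000031548, chromosome 8 from 23411502 to 23449632, plus strand) stood at 0.771 and 0.630 RPKM in vehicle, 1.64 and 1.57 with PTH, and 0.621 and 0.761 with YKL-05-093. The PTH libraries were clear of the other 4, and the YKL-05-093 libraries overlapped vehicle. Sfrp4 (ENSMUSG00000021319, chromosome 13 from 19623104 to 19632994, plus strand) stood at 0.261 and 0.449 RPKM in vehicle, 2.12 and 1.44 with PTH, and 0.817 and 0.826 with YKL-05-093. Its 3 conditions did not overlap, but vehicle rests on 8 and 22 reads, and the PTH replicates (80 and 48 reads) differed beyond counting error, with a ratio of replicate 2 to 1 of 0.680 (exact 95% interval 0.465 to 0.984). Sfrp4 passed the filter only through its PTH and YKL-05-093 libraries, so among tested genes it had to be higher there than in vehicle.

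Wif1 (ENSMUSG00000020218, chromosome 10 from 121033960 to 121100650, plus strand), Wnt inhibitory factor 1, stood at 3.23 and 3.01 RPKM in vehicle, 8.60 and 7.06 with PTH, and 4.14 and 6.71 with YKL-05-093. Both treated groups lay above vehicle and did not overlap each other. The YKL-05-093 replicates differed beyond counting error, with 242 and 401 reads and a ratio of 1.62 (exact 95% interval 1.38 to 1.91). The PTH replicates also differed beyond it, with a ratio of 0.820 (0.718 to 0.936), whereas those of vehicle did not (0.933, 0.762 to 1.14).

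Whether PTH changed the antagonists was asked with limma on log2(RPKM + 0.1), fitted on all genes that passed the filter, with p-values adjusted by Benjamini-Hochberg over all of them. A gene was called when its adjusted p was under 0.05 and its fitted change was above 2-fold. PTH raised Wif1 and Sfrp1, and Sfrp4 was called higher as well, with the limit that it entered the test only through treated libraries. Of all 14261 genes tested in this comparison 1.91% were called, and 1.09% were called higher. Changes of the fit are on the log2(RPKM + 0.1) scale, which understates the change of low genes. Wif1 rose by 1.29 (SE 0.17, adjusted p = 0.0131), a fitted fold of 2.45. Sfrp4 was higher by 2.05 (SE 0.34, adjusted p = 0.0278), a fitted fold of 4.15, and with a filter of 0.1 RPKM, which its vehicle libraries also pass, its adjusted p was 0.0343. Sfrp1 rose by 1.10 (SE 0.20, adjusted p = 0.0372), a fitted fold of 2.14. The call of Sfrp1 was the least stable. It was lost with a pseudocount of 1 (0.62, adjusted p = 0.0709) and with a filter of 0.1 RPKM (adjusted p = 0.0502). No filter (adjusted p = 0.147) and a variance trend on the mean value (adjusted p = 0.165) lost it too.

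The other 4 tested antagonists were not called for PTH. Dkk2 differed by 0.56 (95% interval 0.10 to 1.02, adjusted p = 0.272) and Dkk3 by 0.17 (-0.22 to 0.55, adjusted p = 0.753). Sfrp2 differed by -0.32 (-0.73 to 0.09, adjusted p = 0.523) and Frzb by -0.38 (-0.90 to 0.13, adjusted p = 0.553). The PTH and vehicle libraries of each of the 7 tested genes did not overlap, a state shared by 43.1% of all genes tested.

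With a PTH or vehicle library left out, limma takes its spread only from the condition that keeps 2 libraries. Calls then depend on which condition that is, so only the changes are given. Without PTH replicate 1 and replicate 2 in turn, the changes were 1.15 and 1.44 for Wif1, 1.79 and 2.31 for Sfrp4, and 1.07 and 1.13 for Sfrp1. With vehicle replicate 1 and replicate 2 left out in turn, the changes were 1.34 and 1.25 for Wif1 and 1.75 and 2.35 for Sfrp4. For Sfrp1 they were 1.23 and 0.97, the last under 2-fold.

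**Figure D3:**
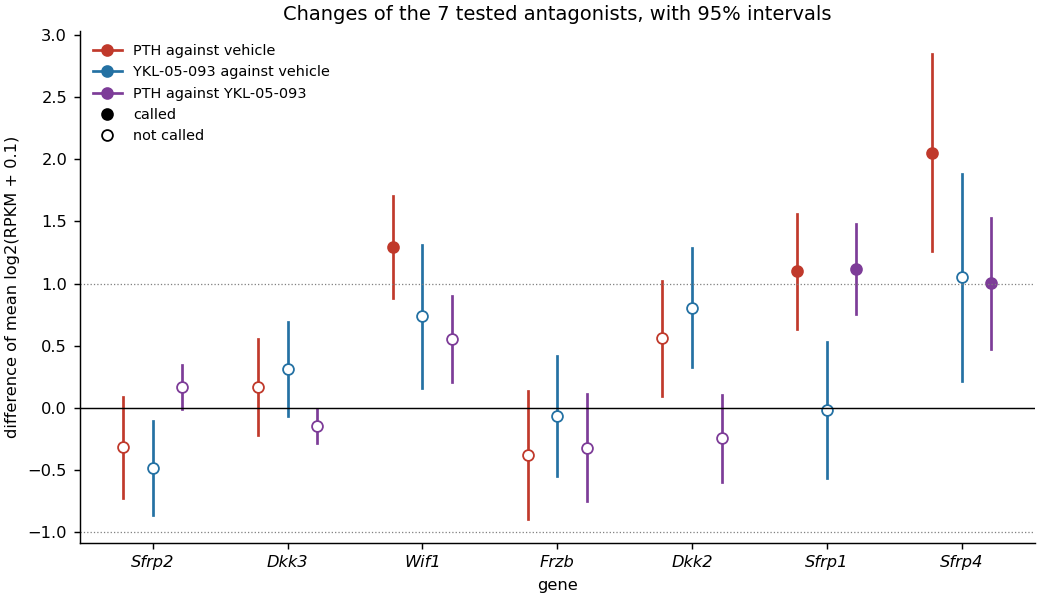
Difference of mean log2(RPKM + 0.1) for the 7 tested antagonists in the 3 comparisons, with 95% intervals of limma's fit; filled points were called, and dotted lines mark 2-fold. Wif1, Sfrp1 and Sfrp4 are filled for PTH against vehicle, Sfrp1 and Sfrp4 for PTH against YKL-05-093, and no point is filled for YKL-05-093 against vehicle.

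With YKL-05-093 none of the 7 tested antagonists was called by limma against the same vehicle libraries, where 0.666% of 14255 genes were called. At an unadjusted p under 0.05 there were 4 (Dkk2, Sfrp4, Wif1 and Sfrp2), a state shared by 8.66% of all genes tested, and voom on the recovered reads called 0. The libraries of 5 did not overlap those of vehicle, a state shared by 37.8% of all genes tested. Sfrp4 differed by 1.05 (95% interval 0.22 to 1.88, adjusted p = 0.414), Dkk2 by 0.81 (0.33 to 1.29, adjusted p = 0.219) and Wif1 by 0.74 (0.16 to 1.31, adjusted p = 0.40). Without vehicle replicate 1 and replicate 2 in turn, these differences were 0.75 and 1.35 for Sfrp4, 0.84 and 0.77 for Dkk2, and 0.79 and 0.69 for Wif1. Wif1 had the widest replicate spread of these: its difference was 1.08 without YKL-05-093 replicate 1 and 0.40 without replicate 2. Sfrp2 differed by -0.49 (-0.86 to -0.11, adjusted p = 0.396) and Dkk3 by 0.31 (-0.07 to 0.69, adjusted p = 0.704). With vehicle replicate 1 and replicate 2 left out in turn, the differences were -0.51 and -0.47 for Sfrp2 and 0.36 and 0.27 for Dkk3, all under 2-fold. Sfrp1 and Frzb differed by -0.02 (-0.56 to 0.53) and -0.06 (-0.55 to 0.42), and for both the sign changed with the processing or with a library left out.

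The PTH and YKL-05-093 libraries were also compared directly, since both comparisons above share the vehicle libraries. PTH left Sfrp1 and Sfrp4 higher than YKL-05-093 did. Of the 14255 genes tested in this comparison 1.21% were called, and 0.737% of the genes tested were called higher with PTH. Sfrp1 was higher with PTH by 1.12 (SE 0.17, adjusted p = 0.000298). Sfrp4 was higher by 1.00 (SE 0.25, adjusted p = 0.0153), just past 2-fold, and it fell under that line with scaling between libraries by the median ratio (0.99). Wif1 was higher by 0.56 (95% interval 0.21 to 0.90, adjusted p = 0.0387), under 2-fold and so not called. Dkk2 differed by -0.25 (-0.59 to 0.10, adjusted p = 0.425), Dkk3 by -0.15 (-0.28 to -0.01, adjusted p = 0.196), Sfrp2 by 0.17 (-0.01 to 0.34, adjusted p = 0.242) and Frzb by -0.32 (-0.75 to 0.11, adjusted p = 0.404). With 1 of the 4 libraries compared left out in turn, the difference was 0.74 to 1.27 for Sfrp4 and 0.99 to 1.24 for Sfrp1. Both ranges reached under 2-fold.

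Other secreted inhibitors of the pathway form a list of 7 genes, of which 3 were tested. Notum, a secreted enzyme that removes the lipid Wnt ligands need, rose with PTH from 1.16 ± 0.198 to 4.81 ± 0.390 RPKM (log2 change 1.97, adjusted p = 0.0040). With YKL-05-093 it stood at 1.67 ± 0.500 RPKM (adjusted p = 0.746), and PTH was higher than YKL-05-093 by 1.5 (adjusted p = 1.14e-05). Igfbp4 and Draxin were not called in any comparison. Both were higher with PTH than with YKL-05-093, by 0.64 (adjusted p = 2.04e-05) and 0.83 (adjusted p = 0.00032), under 2-fold and so not called. With PTH against vehicle they differed by 0.89 (adjusted p = 0.0666) and 0.51 (adjusted p = 0.321). The median change of the list with PTH was 0.89, beside -0.03 over all tested genes. Dkk4 and Cer1 were at 0 in every library.

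Of 18 receptors and co-receptors, the proteins that the antagonists meet at the cell surface, 15 were tested. With PTH 2 were called higher and 2 lower, where 1.91% of all genes tested were called. With YKL-05-093 limma called 0 of the 15, where 0.666% of all genes were called. Kremen1, the receptor through which Dickkopf proteins clear LRP6 from the cell surface, rose with PTH from 13.3 ± 2.10 to 32.3 ± 1.63 RPKM (adjusted p = 0.0177), and stood at 19.6 ± 1.06 with YKL-05-093 (adjusted p = 0.374). Fzd1 rose from 24.8 ± 5.02 to 60.6 ± 2.34 RPKM (adjusted p = 0.0206). Fzd5 fell from 6.43 ± 2.36 to 1.15 ± 0.0752 RPKM (adjusted p = 0.00547) and Fzd8 from 6.55 ± 0.739 to 2.50 ± 0.123 (adjusted p = 0.010). With YKL-05-093 Fzd5 stood at 2.02 ± 0.0469 RPKM (difference -1.57, adjusted p = 0.0582) and Fzd8 at 3.08 ± 0.203 (-1.06, adjusted p = 0.0582), both past 2-fold and just short of the threshold. Fzd1 stood at 36.1 ± 2.11 RPKM (0.55, adjusted p = 0.446). The median change of the list was -0.22 with PTH and -0.06 with YKL-05-093. The LRP co-receptors that bind sclerostin and the Dickkopf proteins were expressed, with Lrp5 at 7.68 ± 1.39 RPKM and Lrp6 at 13.8 ± 5.87 in vehicle, and neither was called in any comparison.

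Of 19 Wnt ligands, which the Wif1 and frizzled-related proteins bind, 9 were tested. Wnt4 rose with PTH by 3.94 (adjusted p = 0.000547) and with YKL-05-093 by 1.93 (adjusted p = 0.0200). Wnt9a rose with PTH from 0.189 ± 0.0103 to 1.09 ± 0.346 RPKM (adjusted p = 0.0186) and stood at 0.451 ± 0.0469 with YKL-05-093. Wnt9a passed the filter only through its PTH libraries and so had to be higher there, and 1 of the 2 vehicle libraries of Wnt4 was under the filter; with a filter of 0.1 RPKM, which both genes pass in vehicle, their adjusted p values for PTH were 0.0239 and 0.00145. Wnt10b fell with PTH from 8.35 ± 0.303 to 4.04 ± 0.439 RPKM (adjusted p = 0.0249) and stood at 8.55 ± 0.135 with YKL-05-093. Of 9 R-spondins and their receptors, which strengthen Wnt signals by sparing frizzled receptors from removal, 5 were tested. Rnf43, a ligase that removes frizzled receptors, fell with PTH from 1.87 ± 0.399 to 0.656 ± 0.167 RPKM (adjusted p = 0.0286), and Rspo3, a secreted R-spondin, fell with YKL-05-093 from 4.61 ± 0.0710 to 1.6 ± 0.148 (adjusted p = 0.0258). The median change with PTH was 0.00 for the ligands and -0.76 for the R-spondin list.

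**Figure D4:**
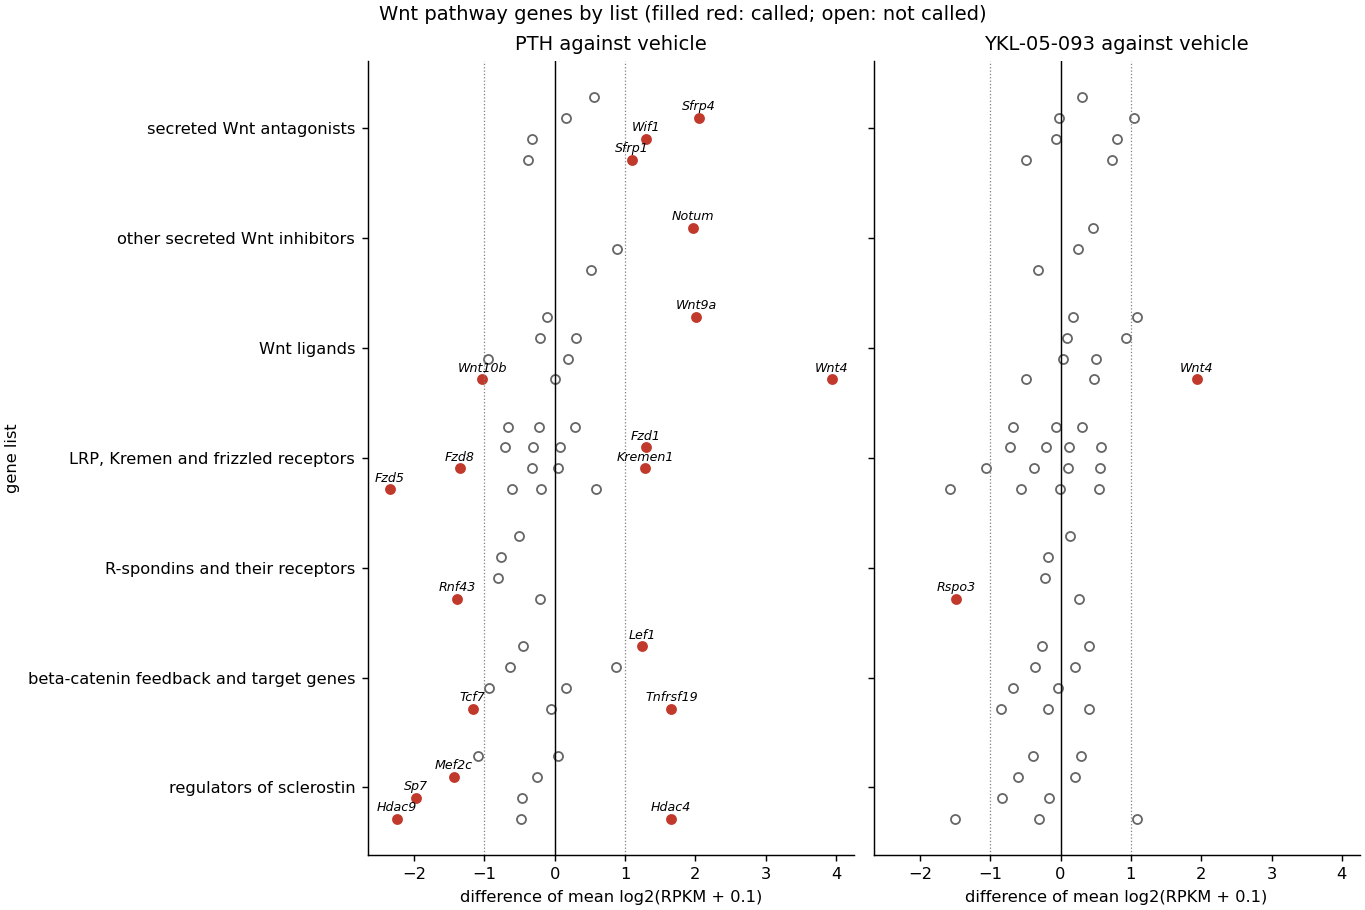
Difference of mean log2(RPKM + 0.1) of each tested gene in 7 lists of the Wnt pathway, for PTH (left) and YKL-05-093 (right) against vehicle; filled red points are genes called by limma, with names, and vertical offsets only separate points. With PTH, called genes lie on both sides of 0 in 4 lists, and with YKL-05-093 only Wnt4 and Rspo3 are filled.

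Of 10 genes known as feedback or target genes of beta-catenin, 9 were tested. With PTH, Lef1 rose from 1.20 ± 0.0553 to 2.97 ± 0.0400 RPKM (adjusted p = 0.010) and Tnfrsf19 from 9.34 ± 1.28 to 29.7 ± 2.49 (adjusted p = 0.00547), while Tcf7 fell from 24.1 ± 1.40 to 10.7 ± 0.339 (adjusted p = 0.0136). Axin2, the usual feedback gene of the pathway, stood at 4.44 ± 0.715 RPKM in vehicle, 2.82 ± 0.201 with PTH (adjusted p = 0.168) and 3.40 ± 0.317 with YKL-05-093 (adjusted p = 0.668). With YKL-05-093 limma called 0 of the 9, where 0.666% of all genes tested were called. The differences were -0.27 for Lef1, 0.40 for Tnfrsf19 and -0.17 for Tcf7. The median change was -0.06 with PTH and -0.17 with YKL-05-093.

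Of 10 genes that regulate Sost or belong to the families of such genes, 9 were tested, although Sost itself was at the floor. With PTH, Mef2c, which drives Sost through a distant enhancer, fell from 45.8 ± 14.5 to 16.5 ± 1.18 RPKM (adjusted p = 0.0291), and Sp7, the transcription factor osterix, fell from 45.8 ± 0.348 to 11.6 ± 0.771 (adjusted p = 0.00190). Hdac9 fell from 2.94 ± 0.442 to 0.537 ± 0.0473 RPKM (adjusted p = 0.00258) and Hdac4 rose from 8.83 ± 2.96 to 27.3 ± 1.05 (adjusted p = 0.0174); both encode class IIa histone deacetylases, which bind and repress MEF2 factors. With YKL-05-093 limma called 0 of the 9, where 0.666% of all genes tested were called. Hdac9 differed by -1.50 (adjusted p = 0.0582) and Hdac4 by 1.09 (adjusted p = 0.140). Sp7 differed by -0.83 (adjusted p = 0.159) and Mef2c by -0.61 (adjusted p = 0.538). The median change was -0.48 with PTH and -0.31 with YKL-05-093.

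Some markers of other cell types moved with the conditions. Col2a1, a cartilage collagen, rose with PTH from 0.601 ± 0.0336 to 1.62 ± 0.114 RPKM (adjusted p = 0.0148). The summed level of the 6 chondrocyte markers was 2.43 to 3.00 RPKM in vehicle, 3.78 to 4.07 with PTH and 4.00 to 4.30 with YKL-05-093, with Acan at or under 3 reads in every library. Kdr, a receptor of endothelial cells, was called higher with YKL-05-093, from 0.529 ± 0.0748 to 1.6 ± 0.203 RPKM (adjusted p = 0.0378). Only 1 vehicle library of Kdr reached the filter, and with a filter of 0.1 RPKM its adjusted p was 0.0571, so the call was lost. The 4 endothelial markers summed to 0.724 to 1.14 in vehicle, 1.14 to 1.44 with PTH and 1.95 to 2.17 with YKL-05-093. The 6 adipocyte markers summed to 11.5 to 12.5, 8.72 to 10.1 and 9.73 to 10.8 RPKM, and the 6 osteoclast and macrophage markers, 97.0% of them Cd68, to 4.02 to 4.23, 3.83 to 4.50 and 4.13 to 4.54. Of these lists 2 chondrocyte, 3 adipocyte, 1 osteoclast and macrophage, and 1 endothelial marker passed the filter. Cebpa held 71.0% of the adipocyte sum and Kdr 71.1% of the endothelial sum, and Lep, Ocstamp and Cdh5 were at 0. In bulk RNA a change in the number of cells and in RNA per cell cannot be told apart, and the part of these cell types in the changes of the antagonists was not tested. Among the osteoblast and osteocyte markers PTH raised Pdpn, from 62.2 ± 12.9 to 167 ± 5.43 RPKM (adjusted p = 0.0148), and Bglap, from 9.04 ± 3.44 to 26.2 ± 1.26 (adjusted p = 0.0286), and lowered Sp7 as above. Bglap has near-identical copies nearby, and how their reads were divided is uncertain.

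For Sfrp4 and Wif1 the 3 genes nearest in pattern were found among the 11882 tested genes that averaged 50 reads or more, by the Euclidean distance over the 6 libraries of log2(RPKM + 0.1) less the vehicle mean. Nearest to Sfrp4 were Gadd45a (0.53), a stress response gene, Lrrc17 (0.68) and Tnfrsf9 (0.71). Nearest to Wif1 were Got1 (0.50), Vit (0.51) and Kremen1 (0.51). With YKL-05-093 against vehicle, these 6 neighbours had differences from 0.57 to 1.34. The YKL-05-093 libraries were part of the distance, so this likeness follows from the search itself. Distances over 6 libraries are a description and carry no test.

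**Figure D5:**
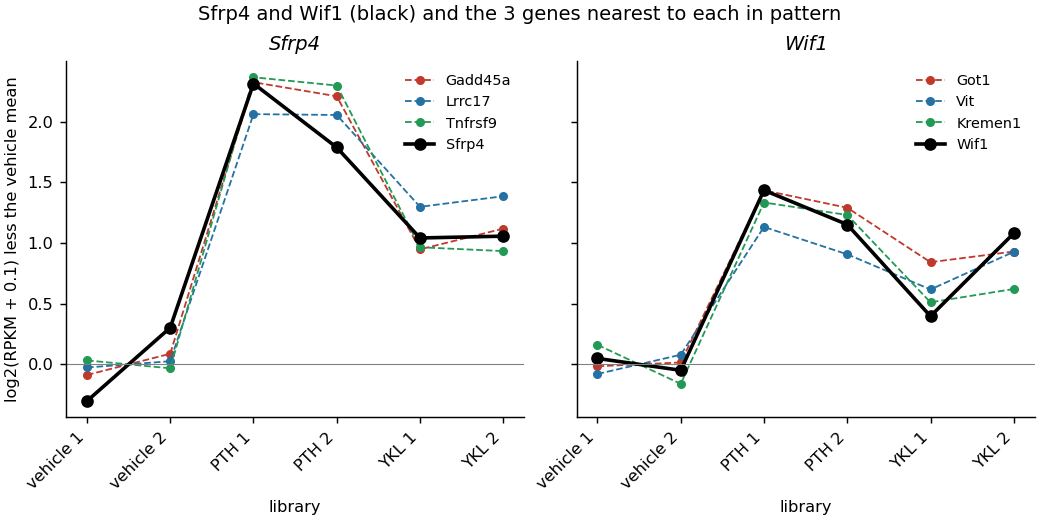
Log2(RPKM + 0.1) less the vehicle mean in each of the 6 libraries for Sfrp4 and Wif1 (black) and the 3 genes nearest to each (coloured). In the 2 YKL-05-093 libraries both genes and their neighbours lie above the vehicle mean of 0 and mostly below their PTH values. The neighbours were chosen over these same 6 libraries.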

How the data were processed

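RNA of 6 libraries of Ocy454 cells was depleted of ribosomal RNA, made into directional libraries and sequenced in pairs by the authors, who mapped reads with STAR to mm10 and counted them per gene with HTSeq on Ensembl genes; the submitters' processing notes also name CASAVA 1.7. The deposited values are RPKM (counts scaled by gene length and library total); the length used and the strand setting of the counting are not given in the sources used here. The 6 single-library tables equal the series table.

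Whole reads, gene lengths and library totals were recovered from the exact steps of the RPKM values: 26214 of 26214 genes above 0 gave whole reads within a tolerance of 1e-06. On simulated data 99.2% of 13114 genes that averaged 20 reads or more came back exactly, and 91.7% of 11589 with fewer reads; the lengths recovered for Sost, Sostdc1 and Dkk1 (2064, 1749 and 2423 bases) lie close to their merged exons (2066, 1781 and 2427). Genes reaching 0.5 RPKM in 2 or more of the 6 libraries were kept (14264 genes, 7 of the 10 antagonists). Each comparison was fitted on its 4 libraries with limma 3.58.1 (R 4.3.3) on log2(RPKM + 0.1), the variance prior following mean log2 reads, with Benjamini-Hochberg adjustment over all genes tested. In simulated data for PTH against vehicle 98.2% of changed genes were recovered, and 0.908% of calls were false. Whether these rates hold for the antagonists or for the uneven replicate spread here (0.333 in vehicle, 0.108 with PTH) was not tested. An exact permutation test of 2 against 2 libraries cannot give p below 0.333. Intervals of replicate ratios are exact binomial. No count model was used for the main results; voom on recovered reads was an alternative, as were other pseudocounts, filters, scalings and left-out libraries.

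The antagonists and the gene lists were chosen with earlier results of these data known. Text names all 10 antagonists, of each other list the genes called in any comparison (at most 4), and the 3 genes nearest in pattern to each called antagonist. The genes nearest to Sfrp1 are not reported here. Values of further genes (Igfbp4, Draxin, Axin2, Lrp5, Lrp6, Dmp1, Phex and markers at the floor) were added after theirs were seen. Positions are from GENCODE M21 on GRCm38. Recovered lengths differ from the merged exons there, as for Sfrp4 (1750 against 4179 bases), so the RPKM of a gene depends on the length the authors used; levels at the merged exon length were added after seeing the data.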

Additional observations from a re-analysis of the deposited data

How the results depend on the processing

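All 3 PTH changes kept their direction under the 13 alternatives of each. With no filter limma called no gene for PTH or for YKL-05-093 against vehicle (2341 and 1735 genes at an unadjusted p under 0.05), and so no antagonist. Members called for PTH, 3 as reported, were 2 with a pseudocount of 1 or a filter of 0.1 RPKM (Wif1 and Sfrp4). With the variance trend on the mean value 1 was called (Wif1). The cause was not tested. For PTH against YKL-05-093 the 2 members called were 0 with a pseudocount of 1, no filter or the trend on the mean value. With 1 fit of all 6 libraries or median-ratio scaling, 1 (Sfrp1) was called.

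Where a library was left out, the lone library of its condition was assumed to vary like the others. The spread then came only from the condition that kept 2 libraries, so the number of calls depends on which condition that was. Over all genes, calls for PTH (272) were 160 with the trend on the mean value and 14 to 671 with a library left out, the lowest without either PTH library. Calls for YKL-05-093 (95) were 55 with a pseudocount of 1, 57 with a filter of 0.1 RPKM, 173 with 1 fit, 6 with the trend on the mean value, and 11 to 320 with a library left out. Calls for PTH against YKL-05-093 (172) were 98 with a pseudocount of 1, 102 with 1 fit, and 0 to 155 with a library left out, 0 without either PTH library (2132 and 2021 genes at an unadjusted p under 0.05).

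Against vehicle after YKL-05-093, the change of Sfrp1 (-0.02) was 0.020 with median-ratio scaling, 0.0068 with voom, and -0.15 to 0.11 with a library left out, above 0 without vehicle replicate 1 or YKL-05-093 replicate 1. That of Frzb (-0.06) was -0.16 to 0.037, above 0 without YKL-05-093 replicate 1.

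The labels number replicates alike in each condition and do not say whether same-numbered libraries belong together. Over all genes, same-numbered libraries did not deviate together (correlations of -0.03 to -0.05). No pairing was used in the main fits, and whether a part of the genes shared a pairing was not tested. With a replicate block, calls were 441 for PTH, 215 for YKL-05-093 and 196 between them, and the 3 and 2 antagonists called were the same. Depth limits Sost, Sostdc1 and Dkk1, with at most 3 reads per library, and Sfrp4 in vehicle, with 8 and 22.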
